A study of Rattus norvegicus with 6 samples.

Results

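Haem handling was described in rat kidney transplants through 4 genes: the beta globin genes Hbb and Hbb-b1, Alas2, which encodes the red cell form of the enzyme that starts haem synthesis, and Hmox1, which encodes the inducible haem oxygenase. They were the genes whose symbols the platform annotation gave to a probe, 1 probe each, out of 5990 genes named on the array. RNA came from sections of whole kidney grafts removed on day 100, and each of 6 samples was hybridised to 1 Applied Biosystems rat genome survey array. Tolerated allogeneic grafts (3 arrays) were LEW.1W kidneys, of MHC haplotype RT1u and from donors aged 8 to 12 weeks, placed in LEW.1A recipients of haplotype RT1a; recipients received antibodies against donor class II molecules and lost both native kidneys on day 7. Syngeneic grafts (3 arrays) were LEW.1A kidneys in LEW.1A recipients, with no antibody named for them in the labels; their donors' age and whether the recipients kept their own kidneys are not given there either. Donor haplotype, mismatch and treatment, and possibly native kidney removal, changed together, so their parts cannot be told apart. Nothing in the labels says that the replicates were separate animals, so the p-values cover only sample-to-sample spread, which may be technical. The median deposited intensity per array was 745 to 991 in tolerated and 421 to 707 in syngeneic grafts, a difference removed by quantile normalization, and with 3 arrays a group their number limits the precision.

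Haem is an iron-bearing ring that haemoglobin, cytochromes and catalase need. Its synthesis starts in mitochondria with 5-aminolevulinate synthase, made from Alas2 in developing red cells and from Alas1 in other tissues. Circulating reticulocytes, the youngest red cells, still carry globin and Alas2 messenger RNA, so a whole organ brings some with its blood. Haem oxygenase opens the ring and releases biliverdin, carbon monoxide and iron. Hmox1 is induced by free haem and oxidative stress in renal tubules and macrophages, and its product is known to protect grafts, while Hmox2 is the constitutive form.

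Hbb and Hbb-b1 lie in the same cluster on chromosome 1, where the RefSeq gene table lists 2 genes, Hbbl1 and Hbb-b2, between them. A promoter entry existed for 3 of the 4 genes. The 120 bases before the start of both globin genes are shown because their probes moved together; capitals mark CACCC, bound in red cells by the factor KLF1, CCAAT, and ATAAA, the core of the TATA box, on either strand. The sequences are from RefSeq, build GRCr8, minus strand, at chr1:167663722-167663841 for Hbb and chr1:167643521-167643640 for Hbb-b1.
Hbb: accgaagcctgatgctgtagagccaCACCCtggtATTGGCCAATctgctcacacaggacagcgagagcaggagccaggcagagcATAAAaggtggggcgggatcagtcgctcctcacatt
Hbb-b1: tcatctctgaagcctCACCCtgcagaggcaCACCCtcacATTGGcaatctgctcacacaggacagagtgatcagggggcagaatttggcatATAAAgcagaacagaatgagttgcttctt
Aligned end to end, these windows were identical at 88 of 130 columns (67.7%), with 20 gap columns. CACCC occurred at 1 place in the Hbb window, at positions -95 to -91 from the start, and at 2 places in the Hbb-b1 window, -105 to -101 and -90 to -86. CCAAT was found on both strands of Hbb in adjoining positions and on the minus strand alone in Hbb-b1. Among 33469 promoter windows of the same length, 29.5% held CACCC, 19.9% CCAAT and 21.5% ATAAA on either strand. GATAA, the core bound by GATA factors (in 11.2% of windows), ACGTG, the core of the hypoxia response element (8.99%), and TGACNNNGC, the core of the antioxidant response element (5.42%), had no match in either globin window. A match describes letters only.

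Transcripts of both beta globin genes were less abundant in tolerated than in syngeneic grafts. The normalized log2 level of Hbb was 17.47, 16.48 and 17.09 in tolerated replicates 1 to 3, against 19.28, 19.32 and 18.28 in syngeneic replicates 1 to 3. Every tolerated array lay below every syngeneic one, and the lowest syngeneic value was that of replicate 3. Hbb-b1 had 17.44, 16.15 and 17.18 in tolerated grafts and 19.08, 19.22 and 18.37 in syngeneic grafts. The order of the arrays within each group was the same for both genes, with tolerated replicate 2 lowest of all. The gap was also present before normalization: deposited intensities of Hbb were 184982, 74880.5 and 185918 in tolerated and 487464, 599056 and 375116.5 in syngeneic grafts. They stayed below the brightest probe of any array, which ranged from 2064364 to 2961891.

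**Figure D1:**
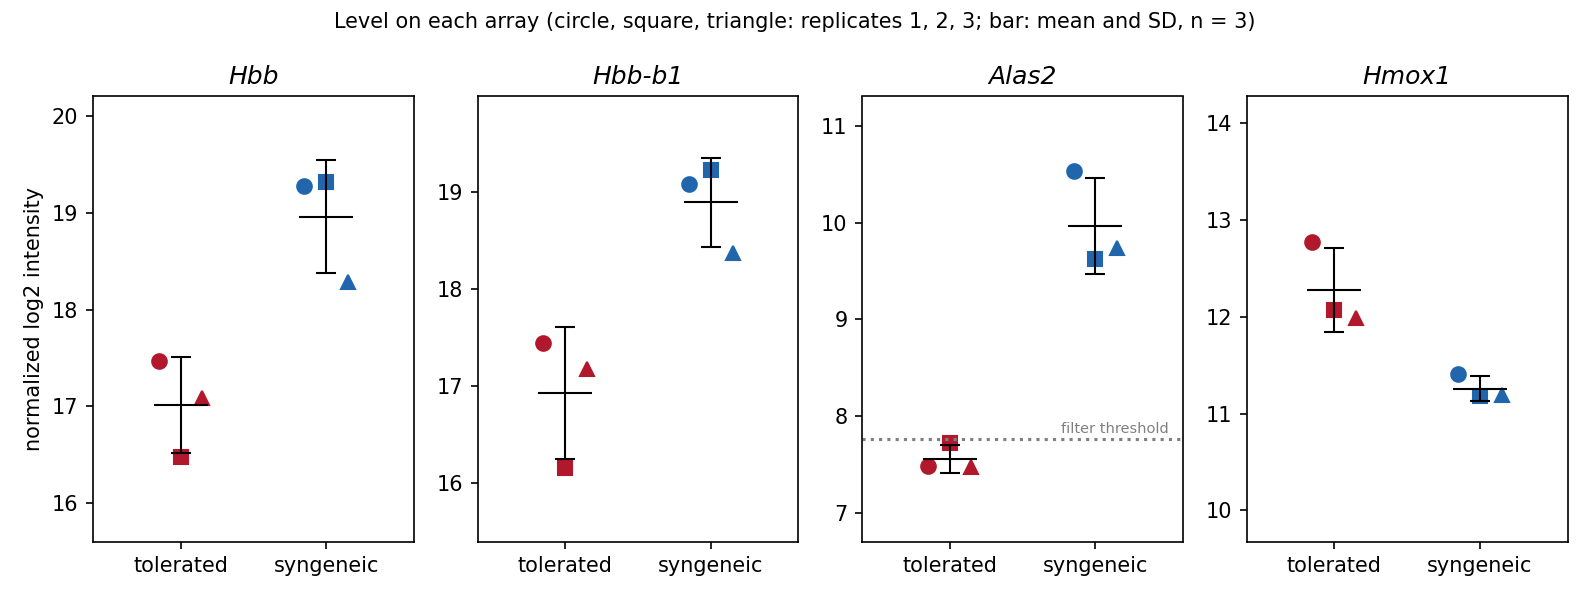
Normalized log2 intensity (y axis, each panel spanning the same number of log2 units) of Hbb, Hbb-b1, Alas2 and Hmox1 in 3 tolerated and 3 syngeneic grafts; symbols are single arrays, long bars the mean and whiskers the SD. The groups do not overlap in any panel: the 3 red cell genes are lower and Hmox1 is higher in tolerated grafts, and Alas2 lies under the filter threshold of 7.76 in all 3 tolerated grafts.

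Hbb averaged 17.01 ± 0.50 in tolerated and 18.96 ± 0.58 in syngeneic grafts (log2, SD, n = 3 each). This is a 3.86-fold lower level with a 95% confidence interval of 1.99 to 7.49 (limma, log2 fold change -1.95 ± 0.39, SE, adjusted p = 0.0203). Hbb-b1 fell 3.92-fold (1.94 to 7.92, log2 fold change -1.97 ± 0.41, limma adjusted p = 0.0229). Across all 20142 tested probes 25.2% were called (adjusted p under 0.05), 12.4% higher and 12.8% lower in tolerated grafts, and 47.3% had groups that did not overlap, 23.1% with tolerated grafts higher and 24.1% with tolerated grafts lower. With 1 array left out the number of called probes ran from 1610 (without syngeneic replicate 2) to 6046 (without syngeneic replicate 3), against 5075 with all arrays. The Hbb-b1 minus Hbb difference was -0.02, -0.33 and 0.09 on the tolerated arrays and -0.19, -0.10 and 0.09 on the syngeneic arrays, so the change of one gene differed from that of the other by -0.02 (exact permutation test, two-sided, p = 1). The probe sequences were not used here, and beta globin genes are known for their close coding sequences; a probe may bind transcripts of both, so the pair may not count as separate measurements. Hbb stayed called without tolerated replicate 1 or syngeneic replicate 3 but not when tolerated 2 or 3 or syngeneic 1 or 2 was dropped (limma adjusted p 0.0594, 0.0630, 0.0690 and 0.0722). Hbb-b1 was lost without tolerated replicate 3 or syngeneic replicate 1 or 2 (0.0610, 0.0749 and 0.0776), while its fold ranged from 2.94 to 4.76 over the 6 fits with 1 array left out. In whole tissue, fewer cells of a type and less RNA per cell cannot be told apart.

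Of 19 genes on a list of globins and their chaperone, 7 had a named probe and 5 were tested: Hbb and Hbb-b1 fell, Cygb rose, and Hbg1 and Ngb were not called. Cygb encodes cytoglobin, a globin of fibroblasts and related stromal cells rather than of red cells. Its log2 level was 16.61, 16.47 and 16.75 in tolerated grafts, against 14.39, 14.40 and 15.13 in syngeneic grafts. It was thus 3.92-fold higher (2.55 to 6.02, limma adjusted p = 0.00716), and leaving out any 1 array kept it called. Ngb, the gene of the nerve cell globin, had a log2 fold change of -0.41 ± 0.28 (limma adjusted p = 0.336). The haemoglobin gene Hbg1 had -0.03 ± 0.43, with 9.14 in tolerated replicate 2 against 7.50 to 8.28 elsewhere. Its syngeneic mean of 8.22 lay so near the filter threshold that a fall like that of Hbb could not show. Hbe1, an embryonic globin gene, and Mb, that of myoglobin, had mean levels under the filter threshold (7.76) and were not tested. The alpha chains were not analysed here.

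Alas2 was low in tolerated grafts. Its log2 level was 7.48, 7.72 and 7.47 in tolerated replicates 1 to 3, against 10.53, 9.62 and 9.73 in syngeneic replicates 1 to 3. The groups did not overlap (7.56 ± 0.14 and 9.96 ± 0.49, SD, n = 3 each). The fitted fall was 5.28-fold (3.28 to 8.50, log2 fold change -2.40 ± 0.28, limma adjusted p = 0.00599). All 3 tolerated values lay under the filter threshold of 7.76, the lower quartile of all probes' mean log2 levels, so their height above background is not known, the probe passed the filter through its syngeneic level, and the size of the fall is not measured. Set against that threshold, the syngeneic mean was 2.20 log2 units higher, or 4.58-fold. With any 1 array left out the adjusted p was 0.00692 to 0.0297, values that rest on the same tolerated levels under the threshold.

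All 4 tested enzymes of haem synthesis, of a list of 9, were called lower (12.8% over all probes). The median log2 fold change was -1.40, against -0.02 over all tested probes. Alas2, which passed the filter through its syngeneic level, is among the 4 enzymes counted. The median thus rests partly on a fall whose size is not measured. The log2 fold changes of the others were -1.03 for Alas1, -1.06 for Uros and -1.74 for Alad. Alas1, the form of the first enzyme used outside red cells, had 14.30, 14.50 and 14.84 in tolerated grafts, against 15.72, 15.68 and 15.34 in syngeneic grafts. That is a 2.05-fold fall (1.43 to 2.94, limma adjusted p = 0.0216). Alad, whose product joins aminolevulinate molecules into the first pyrrole, fell 3.34-fold (2.14 to 5.21, adjusted p = 0.0107). Its log2 level was 14.27, 14.13 and 14.34 in tolerated and 16.26, 16.24 and 15.46 in syngeneic grafts. Uros, which closes the porphyrin ring, fell 2.09-fold (1.49 to 2.94, adjusted p = 0.0174). Alad stayed called whichever array was left out. The list kept 2 called members, Alad and Alas2, without tolerated replicate 2 or syngeneic replicate 1 or 2. Alas1 was lost when replicate 1 or 2 of either group was dropped (adjusted p 0.0678, 0.0704, 0.0743 and 0.0768), and Uros when tolerated 2 or 3 or syngeneic 1 or 2 was dropped (0.0514, 0.0582, 0.0615 and 0.0666). The later enzymes, Fech among them, were not analysed here.

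Genes that move haem, its precursors and iron-sulphur clusters, or control synthesis, were called in 5 of 8 tested cases, all lower (12.8% over all probes). The list held 20 genes, and the median log2 fold change was -1.27. Abcg2, an exporter of porphyrins and urate at the brush border of renal tubules, fell 9.59-fold (5.31 to 17.3, limma adjusted p = 0.00524). It had 12.28, 11.00 and 11.76 in tolerated grafts, against 15.16, 14.84 and 14.82 in syngeneic grafts. Nfs1, the desulphurase that supplies sulphur for iron-sulphur clusters, fell 4.77-fold (adjusted p = 0.00363). Pgrmc1, a haem-binding membrane protein, fell 2.97-fold (adjusted p = 0.00671), and Clpx, a mitochondrial unfoldase that activates aminolevulinate synthase, 2.45-fold (adjusted p = 0.00742). Abcb6, a porphyrin transporter, was the other member that fell, and all 5 were called with any 1 array left out. Abcb10, Flvcr2 and the haem-regulated kinase gene Eif2ak1 had log2 fold changes of 0.20, 0.33 and -0.19 and were not called.

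**Figure D2:**
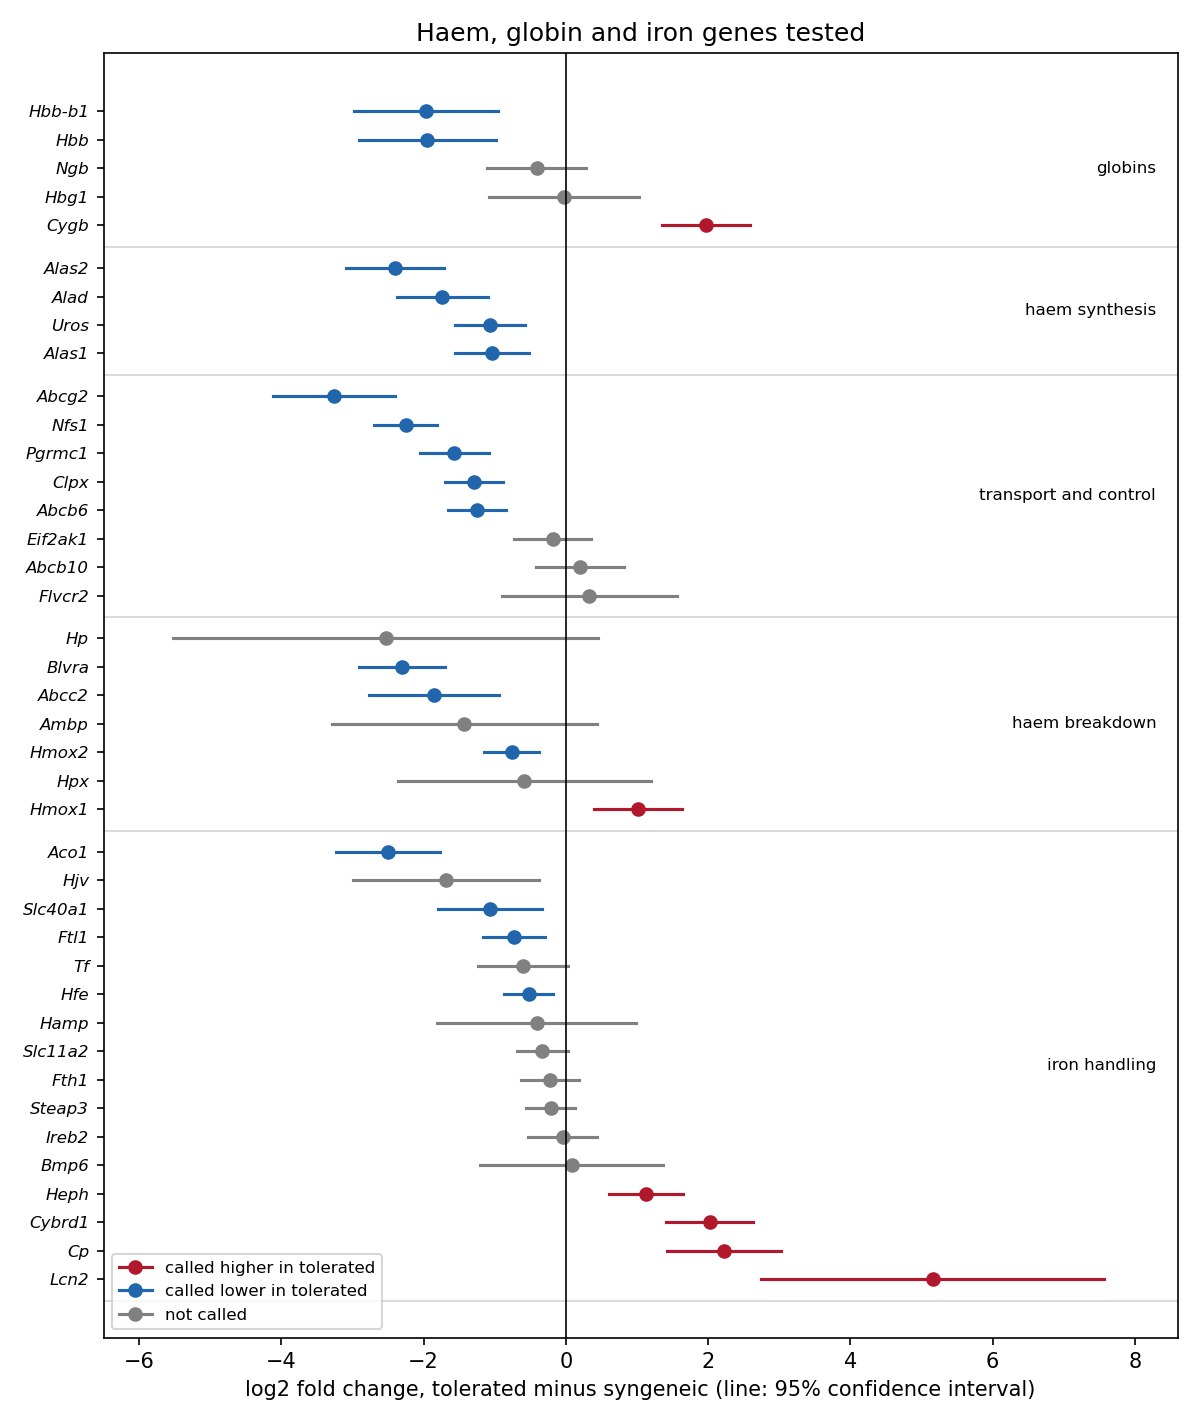
Log2 fold change, tolerated minus syngeneic (x axis), of each tested globin, haem synthesis, transport, haem breakdown and iron gene; points are limma estimates from 3 arrays a group and lines their 95% confidence intervals. The 4 haem synthesis genes all lie left of 0, and Hmox1 (1.02) and Cygb (1.97) lie to the right as the called increases of their groups.

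These falls went together with lower levels of genes of the proximal tubule, the segment that reabsorbs most of the filtrate. All 13 tested proximal tubule markers were called lower (12.8% over all probes), with a median log2 fold change of -2.78. Their summed intensity was 493231 to 777899 in tolerated and 5601957 to 7833249 in syngeneic grafts, and none of the 13 was under the filter threshold. With 1 array left out 11 to 13 of them were called. The part of this shift in the haem synthesis, transport, globin and Alas2 values was not tested. Kidney markers of other segments were called in 2 of 12 tested cases, both lower (12.8% over all probes), and Umod, the uromodulin gene of the thick ascending limb, had 20.10 to 20.67 in tolerated and 20.69 to 20.84 in syngeneic grafts (log2).

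Few markers of red cells other than globin and Alas2 could be read. Of 31 genes on the list 10 had a named probe and 7 were tested. By limma 1 rose and none fell (12.4% and 12.8% over all probes), and 0 of 7 were lower at an unadjusted p under 0.05. The median log2 fold change was 0.00, with its sign differing between scalings (-0.09 with arrays scaled to equal medians). Slc4a1 encodes the band 3 anion exchanger of red cells, and a shorter form is made by acid-secreting cells of the collecting duct. Its log2 level was 9.001, 9.44 and 9.37 in tolerated grafts, against 8.81, 9.57 and 9.43 in syngeneic grafts. The groups overlapped fully, and the fold change was 0.00 ± 0.26 (limma adjusted p = 0.999). Gata1, the master regulator of red cell development, had 8.40 ± 0.69 in tolerated and 8.01 ± 0.33 in syngeneic grafts (log2, SD, n = 3 each). The syngeneic means of Gata1, Rhd (7.73) and Add2 (8.08) lay so near the threshold of 7.76 that a fall of the size seen for Hbb could not show in them. From the syngeneic mean of Slc4a1 (9.27) such a fall would also end under the threshold, so it could show only in part. Bpgm, the enzyme that makes the red cell effector of oxygen release, had a log2 fold change of -0.32 ± 0.17. The gene called higher was Xk, a membrane protein of red cells that is also made elsewhere (1.27 ± 0.22, adjusted p = 0.0146). Dropping tolerated 2, tolerated 3 or syngeneic 2 ended the Xk call (0.0524, 0.0568 and 0.0574). Summed over the 10 genes, intensity was 65758 to 76268 in tolerated and 76924 to 93853 in syngeneic grafts, most of it from Sptan1 and Bpgm, which many tissues express. Rhag, Nfe2 and Epor, the erythropoietin receptor gene, had mean levels under the threshold, and Klf1 was not analysed here.

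Hmox1 ran the other way. Its log2 level was 12.77, 12.07 and 11.99 in tolerated replicates 1 to 3, against 11.40, 11.18 and 11.19 in syngeneic replicates 1 to 3. The groups did not overlap, tolerated replicate 1 stood highest, and the syngeneic arrays were close to each other (12.28 ± 0.43 and 11.26 ± 0.13, SD, n = 3 each). Deposited intensities were 8026, 4307 and 6191 in tolerated and 1634, 1742 and 2624 in syngeneic grafts. The rise was 2.03-fold with a 95% interval of 1.32 to 3.11 (log2 fold change 1.02 ± 0.25, limma adjusted p = 0.0347). Without any 1 of the 6 arrays the adjusted p lay between 0.0610 and 0.108, with log2 fold changes from 0.78 (without tolerated replicate 1) to 1.17 (without tolerated replicate 3).

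**Figure D3:**
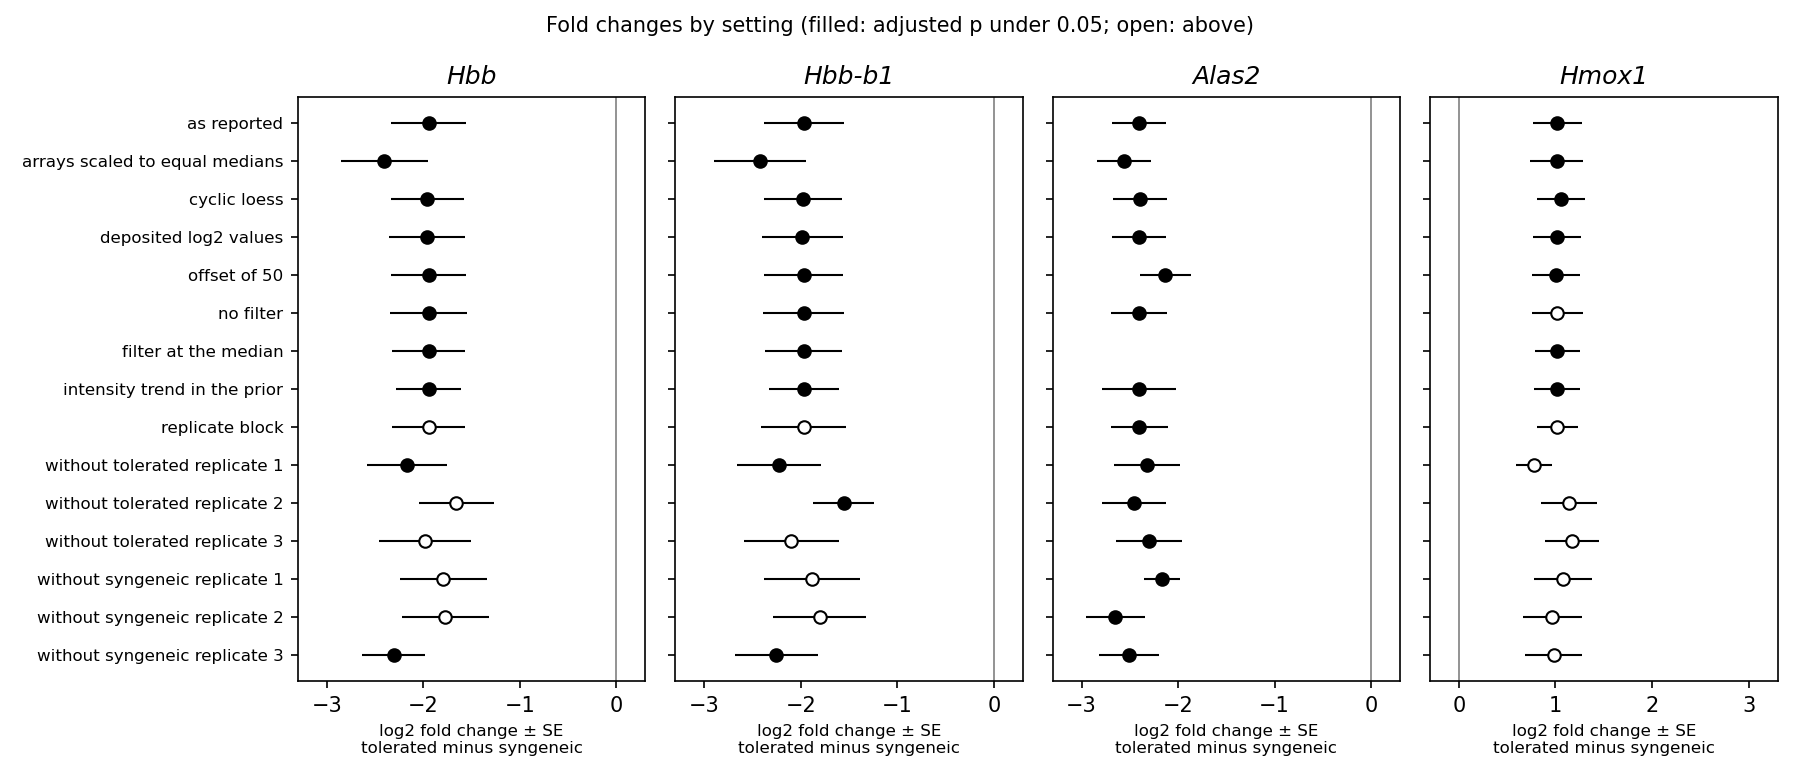
Log2 fold change ± SE (x axis) of the 4 genes as reported and under 14 other settings, with filled points where the adjusted p was under 0.05; Alas2 had no value with the filter at the median. The direction was the same in every setting drawn, Alas2 is filled wherever it was tested, and Hmox1 is open in each fit with 1 array left out. As reported, the tolerated levels of Alas2 lay under the filter threshold of 7.76. Its filled points thus rest on levels whose height above background is not known.

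Set beside the globin genes on the same arrays, Hmox1 shifted relative to both. The Hmox1 minus Hbb difference in log2 level was -4.70, -4.41 and -5.10 on tolerated arrays and -7.87, -8.14 and -7.10 on syngeneic arrays, a shift of 2.97. The shift was 2.99 relative to Hbb-b1. Each gave p = 0.1 in an exact two-sided permutation test, the smallest that 3 arrays against 3 allow, and 0.167 after adjustment over the 5 differences computed between these genes. Groups that do not overlap, in opposite directions for Hmox1 and the globin genes, fix this p in advance. It thus adds nothing to the values of the single genes. The differences that involve Alas2 are not given as sizes, since its tolerated levels lay under the filter threshold.

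No other gene of haem breakdown was called higher. Of 7 tested members on a list of 11, 3 fell and 1, Hmox1, rose (12.8% and 12.4% over all probes). The median log2 fold change was -1.43 (the value of Ambp, which was not called), or -0.93 without syngeneic replicate 1, where Ambp was not tested. The log2 level of Ambp was 7.87, 7.03 and 7.61 in tolerated grafts, and their mean of 7.50 lay under the filter threshold. The height of these levels above background is not known, so the size of the -1.43 median is not measured. Hmox2, the constitutive haem oxygenase gene, had 13.85, 13.59 and 13.71 in tolerated grafts, against 14.62, 14.40 and 14.41 in syngeneic grafts. It fell 1.70-fold (1.30 to 2.22, limma adjusted p = 0.0222). Blvra encodes biliverdin reductase, which turns the product of haem oxygenase into bilirubin. Its log2 level was 13.02, 12.40 and 12.57 in tolerated and 15.15, 15.14 and 14.63 in syngeneic grafts, a 4.95-fold fall (3.25 to 7.55, adjusted p = 0.00529). Abcc2, an exporter of bilirubin conjugates in liver and of organic anions in the tubule, fell 3.62-fold (adjusted p = 0.0203). Blvra passed in all 6 fits with 1 array left out. Hmox2 stayed called when syngeneic replicate 3 was dropped, but not in the other 5 fits (up to 0.0774), and Abcc2 was lost without tolerated replicate 3 or syngeneic replicate 1 or 2 (up to 0.0736). The 4 calls of the list were thus 2 without tolerated replicate 1 or 2 and 1 without tolerated replicate 3 or syngeneic replicate 1 or 2.

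The plasma scavengers of free haem and haemoglobin were not called, with all arrays or with any 1 left out. Hpx, the haemopexin gene, had 10.76, 10.58 and 10.19 in tolerated grafts, against 12.75, 9.97 and 10.55 in syngeneic grafts. Hp, the haptoglobin gene, had 8.39, 8.95 and 7.94, against 13.69, 8.84 and 10.34. Syngeneic replicate 1 was the high array for both and for Ambp, whose alpha-1-microglobulin also binds haem (10.67 there, 8.13 and 8.00 in the other syngeneic grafts). The limma adjusted p was 0.594 for Hpx, 0.182 for Hp and 0.221 for Ambp. Without that array the log2 fold change was 0.25 for Hpx, against -0.58, and -1.19 for Hp, against -2.53, and Ambp was not tested. All 3 are genes that the liver expresses strongly. Cd163, the macrophage receptor for haemoglobin bound to haptoglobin, was not analysed here.

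None of 7 tested regulators of Hmox1 was called by limma (25.2% over all probes), although 2 had an unadjusted p under 0.05. The median log2 fold change was 0.37. Nfe2l2, the gene of NRF2, which activates Hmox1, had 16.67, 16.62 and 16.53 in tolerated grafts, against 16.22, 16.34 and 16.62 in syngeneic grafts (0.21 ± 0.17, adjusted p = 0.400). Hif1a, the hypoxia factor gene, had 0.51 ± 0.15 (adjusted p = 0.0532; 0.59 and 0.0342 without syngeneic replicate 3), and Atf4, a factor of the stress response, had 0.43 ± 0.17 (adjusted p = 0.115).

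Of 16 tested genes known as targets of NRF2, 6 fell and 1 rose (12.8% and 12.4% over all probes), and their median log2 fold change was -0.38. Osgin1, an oxidative stress growth inhibitor, fell 22.7-fold (11.1 to 46.4, limma adjusted p = 0.00421). Gclc and Gclm encode the subunits of the enzyme that limits glutathione synthesis. They fell 19.1-fold (adjusted p = 0.00469) and 5.70-fold (adjusted p = 0.00556). Gclc had 12.89, 12.79 and 14.03 in tolerated grafts, against 16.97, 17.58 and 17.95 in syngeneic grafts. Me1, the malic enzyme gene, fell 5.78-fold (adjusted p = 0.00421), and these 4 passed with any 1 array left out. Nqo1, the quinone reductase gene often read as an NRF2 marker, had 0.24 ± 0.20 (adjusted p = 0.431). The target that rose was the aldose reductase-like Akr1b8 (1.46 ± 0.30, adjusted p = 0.0214), whose call ended when tolerated 1 or 3 or syngeneic 1 or 2 was dropped (adjusted p up to 0.0735). Kidney tubules also express Gclc strongly, and the proximal tubule markers given above moved the same way as the genes that fell; their part was not tested.

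Macrophage genes rose on the same arrays as Hmox1. All 12 tested macrophage markers were called higher (12.4% over all probes), the median log2 fold change being 3.02. C1qa stood at 18.42 to 18.63 in tolerated and 14.40 to 16.23 in syngeneic grafts (log2). With 1 array left out 6 to 12 were called, 6 without tolerated replicate 1 or 3 and 8 without tolerated replicate 2 or syngeneic replicate 2. Their summed intensity was 3069510 to 3362950 in tolerated and 282719 to 991248 in syngeneic grafts. No marker had a mean level under the filter threshold. On syngeneic replicate 1, however, Itgam (log2 level 7.33) lay under it, so its height above background there is not known. Relative to the mean of all 6 arrays, the macrophage list stood at 1.64, 1.45 and 1.55 in tolerated and at -2.17, -2.06 and -0.41 in syngeneic grafts. The part of macrophage content in the Hmox1 value was not tested. Among neutrophil markers 2 of 6 tested rose (12.4% over all probes), and none without tolerated replicate 2 or 3 or syngeneic replicate 2. By limma no call was made among 2 platelet and 6 endothelial markers (25.2% over all probes), of which 0 and 2 had an unadjusted p under 0.05.

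**Figure D4:**
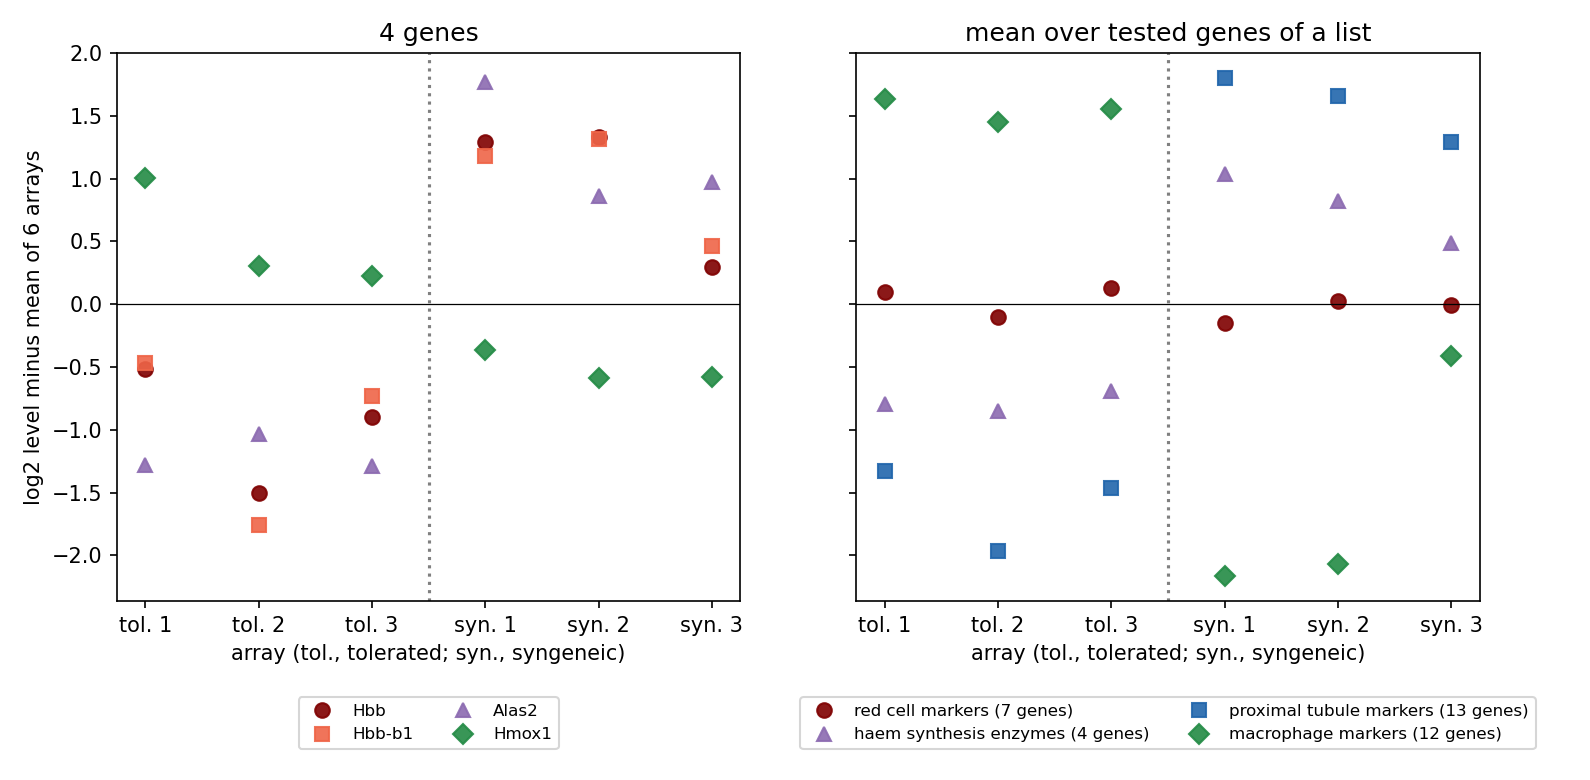
Log2 level minus the mean of all 6 arrays (y axis) on each array, for the 4 genes on the left and for the mean of 4 gene lists on the right. Hbb and Hbb-b1 nearly coincide, the mean of the 7 red cell markers stays close to 0 on every array, and the macrophage mean in syngeneic replicate 3 (-0.41) is the highest of the syngeneic grafts. Some of those 7 markers lay too near the filter threshold to show a fall like that of Hbb.

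Iron genes split in direction, as did the calls over all probes. Of 16 tested members on a list of 25, 4 rose and 4 fell (12.4% and 12.8% over all probes). The median log2 fold change was -0.28. Ferritin stores the iron that haem oxygenase releases. Its light chain gene Ftl1 had 19.70, 19.32 and 19.64 in tolerated grafts, against 20.14, 20.30 and 20.42 in syngeneic grafts, a 1.66-fold fall (1.23 to 2.25, limma adjusted p = 0.0330). The heavy chain gene Fth1 had -0.23 ± 0.17 (adjusted p = 0.365). Slc40a1, the gene of ferroportin, the known exporter of cellular iron, fell 2.09-fold (1.26 to 3.48, adjusted p = 0.0491). Aco1 encodes the cytosolic aconitase that doubles as iron regulatory protein. It fell 5.68-fold (adjusted p = 0.00618), and Hfe, a regulator of iron sensing, also fell (-0.52 ± 0.14, adjusted p = 0.0419).

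The iron genes that rose were Cp, Cybrd1, Lcn2 and Heph. Cp and Heph encode the ferroxidases ceruloplasmin and hephaestin, which oxidise iron on its way out of cells. Cp had 16.16, 16.21 and 16.01 in tolerated grafts, against 13.54, 13.57 and 14.62 in syngeneic grafts, a 4.65-fold rise (2.67 to 8.10, limma adjusted p = 0.0102). Cybrd1, a ferric reductase, rose 4.07-fold (2.66 to 6.21, adjusted p = 0.00660). Lcn2, a siderophore-binding protein released by injured tubules, had 18.77, 18.62 and 18.34, against 12.40, 12.11 and 15.76, a rise of 5.16 ± 0.98 (adjusted p = 0.0180). Heph had 1.13 ± 0.21 (adjusted p = 0.0176). Aco1, Cp and Cybrd1 were called with any 1 array left out, and 3 to 5 iron genes were called in those 6 fits, against 8 with all arrays: 4 without tolerated replicate 1 or 2, 3 without tolerated replicate 3 or syngeneic replicate 1 or 2, and 5 without syngeneic replicate 3. Ftl1 and Hfe were lost in all 6 such fits (adjusted p up to 0.0988 and 0.126), Slc40a1 in all but that without tolerated replicate 1 (up to 0.140), Lcn2 in all but that without syngeneic replicate 3 (up to 0.0614), where its log2 fold change was 6.33, and Heph without tolerated replicate 1 or 3 or syngeneic replicate 1 or 2 (up to 0.0674). Lcn2 had 4.46 without syngeneic replicate 2.

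Genes of proteins that carry haem as a cofactor, or of subunits and partners of such proteins, moved in both directions. Of 15 tested genes outside the globins, 5 rose and 6 fell (12.4% and 12.8% over all probes). The median log2 fold change was -0.13. Not every gene on this list encodes a chain that binds haem itself, Por, Uqcrh and Gucy1a1 among them. Cat, the catalase gene, fell 7.45-fold (5.19 to 10.7, limma adjusted p = 0.00363), with 15.69, 15.71 and 16.28 in tolerated and 18.71, 18.87 and 18.79 in syngeneic grafts. Nos2, the inducible nitric oxide synthase gene, and Cybb, the haem-bearing subunit of the phagocyte oxidase, rose by 3.65 ± 0.61 (adjusted p = 0.0135) and 2.32 ± 0.57 (adjusted p = 0.0335). The log2 level of Nos2 was 7.39, 7.82 and 9.71 in syngeneic replicates 1 to 3. Replicate 1 lay under the filter threshold and replicate 2 close to it. Their height above background is not known, so the size of the Nos2 rise is not fully measured. Gucy1a1, a subunit of the haem-bearing receptor for nitric oxide, rose by 1.73 ± 0.28 (adjusted p = 0.0123). Cat and Gucy1a1 passed with any 1 array left out. Nos2 was lost without tolerated replicate 3 or syngeneic replicate 2 (0.0505 and 0.0555) and had 4.33 without syngeneic replicate 3. That value rests on the low levels of syngeneic replicates 1 and 2. Cybb was lost without any tolerated replicate or without syngeneic replicate 2 (up to 0.0979) and had 1.69 without syngeneic replicate 1. Against 11 calls with all arrays, there were 6 without tolerated replicate 1 or 2, 5 without tolerated replicate 3 or syngeneic replicate 2, and 7 without syngeneic replicate 1.

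Erythropoietin and oxygen-sensing genes gave 1 call among 12 tested (25.2% over all probes), that of Bnip3, a mitophagy gene induced by hypoxia. It fell 2.42-fold (1.73 to 3.39, limma adjusted p = 0.0113) and was lost without syngeneic replicate 2 (adjusted p = 0.05003). Slc2a1, the glucose transporter gene that hypoxia induces, had 0.76 ± 0.22 (adjusted p = 0.0514), and leaving out syngeneic replicate 3 gave 0.91 (adjusted p = 0.0272), where 3 genes of the list were called. Epo itself was not analysed here.

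The genes whose profile over the 6 arrays was most like each of the 4 were sought among 4954 others, by the root mean square difference of log2 levels after centring. For Hbb they were Epb41l3 (0.11), Pde4dip (0.14) and Hbb-b1 (0.15). For Hbb-b1 they were Pde4dip (0.13), Hbb (0.15) and Pon3 (0.15). Epb41l3, Pde4dip and Pon3, a paraoxonase gene, were not on the list of red cell markers. The nearest to Alas2 were Ephx2 (0.21), Prss8 (0.26) and Arg2 (0.27), genes that kidney tubules express. The tolerated levels of Alas2 lay under the filter threshold, so its ranking rests partly on levels whose height above background is not known. The nearest to Hmox1 were Cebpb (0.12), which encodes a factor of the acute phase response, F2rl1 (0.13), which encodes a protease-activated receptor, and Hsd3b7 (0.14).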

How the data were processed

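One array per sample was read for 3 tolerated and 3 syngeneic grafts. The authors deposited 1 intensity per probe and array, not normalized between arrays; per the labels' protocols, digoxigenin-labelled cRNA from 0.5 µg of total RNA was hybridised to 60-mer probes and read by chemiluminescence. No source used here states the background correction, flags or detection calls. The deposited log2 values, equal in distribution between arrays, served as an alternative. For the main values the intensities were log2-transformed, quantile normalized and fitted with limma 3.58.1 in R 4.3.3 (lmFit, eBayes, two-sided), with Benjamini-Hochberg adjustment over 20142 probes and a threshold of 0.05; 6715 of 26857 probes with a mean log2 level under the lower quartile (7.76) were left out. Genes were named from the platform annotation: 6104 probes had 1 symbol, 70 several and 20683 none listed, and 6081 of the first matched RefSeq (GRCr8). The brightest tested probe stood for a gene with several. Confidence intervals are 95%. Promoter windows were searched in Python 3.11.15 and aligned with Biopython 1.88. CCAAT and ATAAA were added to the motifs after the sequences were read.

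The 4 genes and the gene lists were chosen with earlier results of these data known. Named whatever their value were the 4 genes and a set of haem, globin and iron genes; from each list came up to 4 called genes with non-overlapping groups by largest change, or the 2 with the smallest p where none was called, and the 3 genes nearest to each of the 4. Other genes were named, after their values were seen, to account for a count. The fit was tested on simulated data. Alternatives were scaling to equal medians, cyclic loess, the deposited log2 values, an offset of 50, no filter, a filter at the median, an intensity trend in the prior, a replicate block and leaving out each array.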

Additional observations from a re-analysis of the deposited data

How the results depend on the processing

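Under 8 other settings with all 6 arrays and 6 fits with 1 array left out, Hbb, Hbb-b1, Alas2 and Hmox1 kept their direction wherever they were tested. The filter at the median removed Alas2. Scaling to equal medians moved the median log2 fold change of all probes to -0.15, against -0.02, and the share of calls that were higher in tolerated grafts to 37.5%, against 49.1%; there Cyba, a subunit of the phagocyte oxidase, turned to -0.008. Without a filter Hmox1 (1.02) had a limma adjusted p of 0.0548, with 5 iron genes and 2 red cell markers called; cyclic loess also called 2 red cell markers.

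Residual correlations of same-numbered arrays were -0.0023, 0.0112 and 0.0538, against -0.0383 to 0.0313 for arrays of unlike number. With 3 arrays a group, such values cannot decide whether the numbers pair the grafts. A replicate block left 1886 called probes, against 5075. It left Hbb at -1.95, Hbb-b1 at -1.97 and Hmox1 at 1.02 with limma adjusted p of 0.0561, 0.0654 and 0.0616, and Alas2 called. It called 1 globin, 2 haem synthesis, 0 red cell, 1 breakdown and 4 iron genes.

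With 1 array left out, the number of called probes ranged from 1610 to 6046, and that of called globins from 1 to 3, haem synthesis enzymes from 2 to 4, red cell markers from 0 to 1, breakdown genes from 1 to 3 and iron genes from 3 to 5. Log2 fold changes ranged from -2.31 to -1.66 for Hbb, -2.25 to -1.56 for Hbb-b1 and 0.78 to 1.17 for Hmox1. Of 3019 values of other genes and lists under the alternatives, 416 changed their side of the threshold, their sign or their size beyond the set limits; the cause was not tested. Height above background is not known, which limits statements on dim probes such as Alas2 in tolerated grafts.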
